A study of Homo sapiens with 3 samples.

Results

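The chromosome 1 pericentromeric block was taken as every H3K27me3 peak overlapping chr1:126300001-146000000 of T2T-CHM13, 19.7 Mb of long-arm sequence between the active centromeric array and the start of the ordinary long arm. It held 683 of the 181157 control peaks and 1029 of the 105729 siORCA peaks, 1712 of 286886 in all. The rule for members uses position only, but the region itself was picked with earlier results of these data known. Both libraries came from U2OS, a human osteosarcoma line, in the same labelled batch. Control cells were transfected with Gl3 and the other cells with siORCA, by its name an siRNA against ORCA. The third labelled sample is an input, which was not analysed here. Each condition had 1 ChIP library, so no value has an SD, and every difference below sets 2 libraries side by side without a test.

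H3K27me3 is written by Polycomb repressive complex PRC2 and is best known from silent developmental genes. Pericentromeric satellite DNA, long tandem arrays of short repeats, is usually packed into constitutive heterochromatin that carries H3K9me3 instead, and satellite DNA can gain H3K27me3 in cells where H3K9me3 or DNA methylation is low. The long arm of chromosome 1 begins with one of the largest satellite blocks of the human genome, made mainly of human satellite 2. ORCA, also called LRWD1, binds the origin recognition complex and localizes to heterochromatin. The series title concerns a role of ORCA in keeping Polycomb complexes stable. No satellite annotation of this build was used here, so the stretches below are named by position and by their peaks, and the label of a satellite block was not checked against sequence.

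The main body of the block was covered almost from end to end in both libraries. In the 13.3 Mb from 129000001 to 142300000, called the core here, peaks covered 99.3% in the control and 98.8% in siORCA. The proximal zone, the 2.7 Mb between the active array and the core, had 71.9% coverage in the control list, against 44.4% in the siORCA list. The distal zone, the 3.7 Mb on the long-arm side, was covered over 4.66% and 4.87%. In length, the core held 13.21 and 13.14 Mb, the proximal zone 1.94 and 1.199 Mb, and the distal zone 0.172 and 0.180 Mb. Nearly all of the difference between the lists in covered length thus lay in the proximal zone, where the ratio of siORCA to control was 0.618. The core had a ratio of 0.995 and the distal zone a ratio of 1.05.

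Over the whole window, control peaks covered 15.32 Mb and siORCA peaks 14.52 Mb (ratio 0.947). Outside it, the control list covered 191.5 Mb and the siORCA list 78.0 Mb, a ratio of 0.407. On the rest of chromosome 1 they covered 11.1 and 3.90 Mb, a ratio of 0.350. The proximal zone's ratio of 0.618 was above both, so its covered length differed less between the lists than that outside the window. The window therefore held 7.41% of all covered length in the control list and 15.7% in the siORCA list. Within chromosome 1 it made up 57.9% and 78.8%. The depth of the libraries is unknown. The whole lists differed in number of peaks and in median fold (2.73 in the control, 3.29 in siORCA), and the part that depth plays in any difference between them was not tested.

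Bin by bin, the core left little room for a difference. The window was cut into 197 bins of 100 kb, and a bin was counted as lower or higher in siORCA when its covered length differed by at least 10 kb. In siORCA, 17 bins were lower (8.63%) and 1 was higher (0.508%). Over all 100 kb bins of the genome, 9.49% were lower and 0.94% were higher, so these shares were near the background for the window as a whole. The 17 lower bins were all among the 27 proximal bins (63.0% of that zone), and 0 of the 133 core bins and 0 of the 37 distal bins reached the limit. Bins thinly covered in both lists cannot lose 10 kb, so a second comparison took only densely covered bins, those averaging at least 50% over the control and siORCA lists. Among such bins of the window, 6 were lower in siORCA (4.11%) and 0 were higher. Most of them were nearly full core bins, and all 6 lower bins were proximal. The average over both lists also left out lower proximal bins, such as those starting at 126700001 and 128000001. Outside the window, 54.2% of densely covered bins were lower and 15.1% were higher. The share of 4.11% was thus set mainly by the core. It does not describe the densely covered proximal bins. The 9.49% of all bins is no like background for the 63.0% of proximal bins. Of the 30537 bins of the genome, only 583 lay outside the window and were densely covered. Their share of 54.2% lower is nearer in kind, though the 63.0% also counts proximal bins that averaged under 50%. A loss in the proximal zone beyond that of other densely covered bins was not shown. A bin that is full in both lists cannot differ, and 86 core bins were full in the control and 53 in siORCA.

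**Figure D1:**
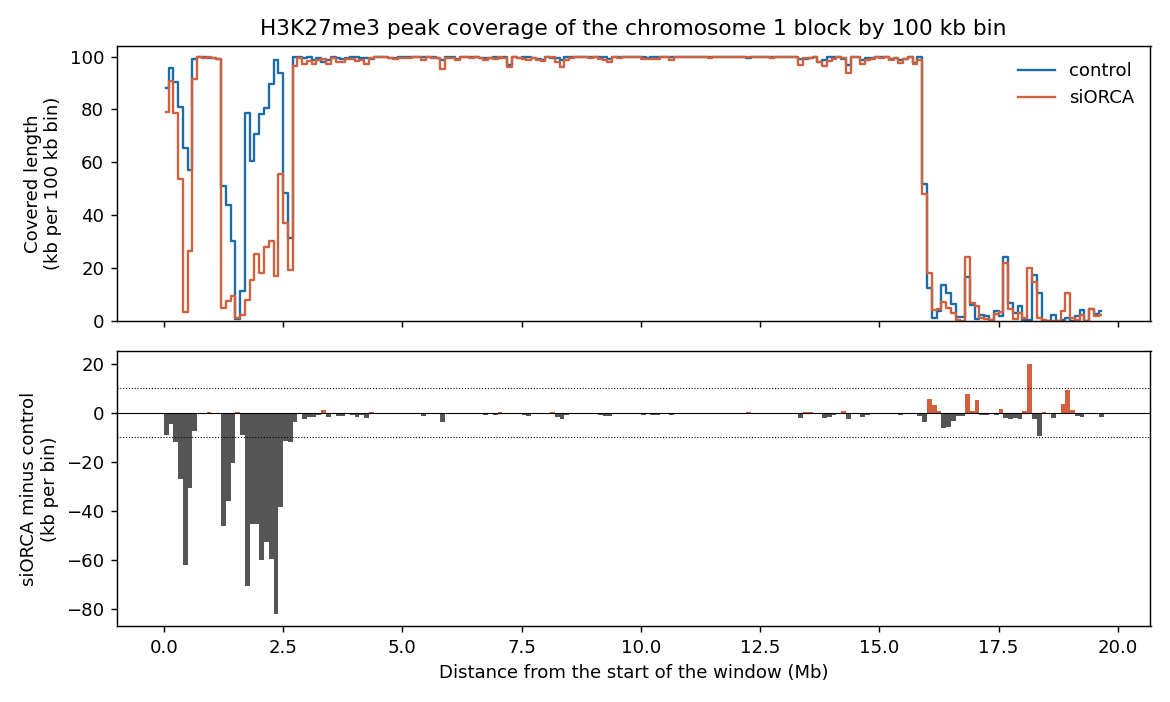
Covered length of each 100 kb bin in the control (blue) and siORCA (orange) lists, and below it the difference, siORCA minus control, with dotted lines at the limit of 10 kb. The x axis is distance from the window's start in Mb; the core is a plateau at or near 100 kb per bin in both lists, and the 17 bins past the lower line all precede it.

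The plateau was even. In each list, 132 of 133 core bins were covered over at least 90 kb. The last bin, 142200001 to 142300000, holds the end of the block and was covered over 51.9 kb in the control and 48.0 kb in siORCA. The median difference over core bins was -0.066 kb, with a range from -3.86 to 0.903 kb. In the core, 99.3% of the control length was also covered in siORCA, as was 99.8% of the siORCA length in the control list. Of the 99 control peaks there, 97 were overlapped by a siORCA peak by at least 1 bp, against 33.7% of peaks in the whole control list. Of the 228 siORCA peaks, 227 were overlapped by a control peak, against 68.7% in the whole list. In regions covered from end to end an overlap is bound to be high, and these shares describe the coverage again.

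What did differ in the core was how the covered length was cut into peaks. The control list used 99 peaks (7.49 per covered Mb) and the siORCA list 228 (17.4 per covered Mb), a ratio of 2.30 in number. The median width was 36271 bp in the control, against 21571 bp in siORCA. Over the whole lists the medians were 515 and 414 bp, so siORCA peaks were narrower there too. The N50 width, the width at which peaks of that size or larger hold 50% of the summed peak length, was 463.7 kb in the control and 157.0 kb in siORCA. In 61 core bins the siORCA list had more peaks than the control list, in 7 it had fewer, and in 65 the number was the same.

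The widest control peak ran from 136477342 to 138518272, 2.04 Mb under a single call, and it was the widest of the whole control list. Over the same bases the siORCA list had 9 peaks, which covered 99.8% of it. The next widest control peaks, 138518669 to 139648654 (1.13 Mb) and 134672117 to 135604920 (932.8 kb), were covered over 99.9% by 3 siORCA peaks and over 99.4% by 12. In siORCA the widest peak ran from 138100327 to 139082670 (982.3 kb) and was also the widest of its list. The other 2 of its 3 widest in the window ran from 136989842 to 137725456 (735.6 kb) and from 139083135 to 139602109 (519.0 kb), and control peaks covered between 99.96% and 100% of each of the 3. The 3 widest siORCA peaks lay within the span of the 2 widest control peaks, and the third control peak lay before them.

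Of the 30 control peaks of at least 100 kb in the core, 26 were met by more than 1 siORCA peak, with a median of 4 and at most 14. The remaining 4 were each met by a single siORCA peak. In every case siORCA peaks covered between 97.6% and 100% of the control peak. In the opposite direction, 22 of 31 siORCA peaks of at least 100 kb were met by a single control peak and 9 by 2 or 3. Genome-wide, 33 of the 55 control peaks and 33 of the 44 siORCA peaks of at least 100 kb lay in the window. So did the 10 widest control peaks and 9 of the 10 widest siORCA peaks.

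The breaks between peaks were short. Between 129000001 and 142250409, where both lists were continuous, the control list had 95 gaps that added up to 44.8 kb (0.338% of the span). The siORCA list had 225 gaps that added up to 111.6 kb (0.842%). Median gaps were 443 bp (control) and 452 bp (siORCA), and 91 of 95 and 206 of 225 gaps were under 600 bp. In the whole lists the shortest distance between neighbouring peaks was also 385 bp (control) and 397 bp (siORCA), so most gaps of the core were not far above the shortest break that either list holds.

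Some breaks fell at the same place in both lists. Of the control gaps, 46 of 95 overlapped a siORCA gap, and of the siORCA gaps, 46 of 225 overlapped a control gap. In bases, 19.7 kb of gap was shared, 44.0% of the control gap length and 17.7% of the siORCA gap length, where gaps of the other list took up 0.842% and 0.338% of the span. The other 179 siORCA gaps lay wholly inside control peaks, and 49 control gaps lay wholly inside siORCA peaks. Peak ends matched closely at some of these sites. Of 96 control peaks, 38 ended within 100 bp of a siORCA peak's end and 30 began within 100 bp of a siORCA peak's start. In the other direction, 38 ends and 30 starts were 16.8% and 13.3% of the 226 siORCA peaks. The start at 132925387 and the end at 130434550 were identical to the base.

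The longest gaps were past the end of the block. There, the control list was empty from 142250410 to 142276358 (25.9 kb) and from 142280355 to 142299094 (18.7 kb), and the siORCA list from 142250627 to 142278992 (28.4 kb) and from 142279317 to 142293779 (14.5 kb). Inside the core, the longest control gaps ran from 142247834 to 142249513 (1680 bp), from 142092976 to 142093790 (815 bp) and from 140054725 to 140055464 (740 bp). For each of these 3, the siORCA list also had a gap over most of the length (1261, 799 and 470 bp). Of the 3 longest siORCA gaps inside the core, 129002046 to 129004307 (2262 bp) and 132118389 to 132119755 (1367 bp) were wholly covered in the control. The gap from 142244648 to 142246151 (1504 bp) shared 510 bp with a control gap.

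**Figure D2:**
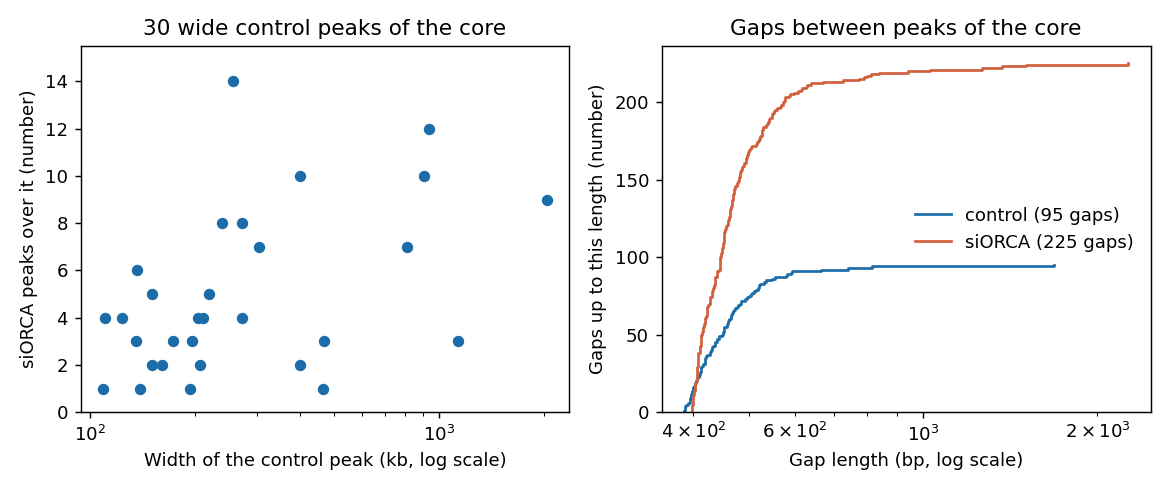
Left, width in kb (log scale) of each control peak of at least 100 kb in the core against the number of siORCA peaks over it; right, the number of core gaps up to each length in bp (log scale) in each list. The siORCA list reaches 225 gaps and the control list 95, and both curves rise steeply between 385 and 600 bp.

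The fold of a peak is the enrichment value in the authors' own list, and it is read here only within that list. The core stood high in both. Its length-weighted mean fold was 4.39 in the control, above that of 99.6% of all control peaks, and 5.02 in siORCA, above that of 99.1% of all siORCA peaks. Per bin, the mean fold in the core ranged from 4.05 to 5.33 in the control and from 4.80 to 5.79 in siORCA. The highest peak of the control list in the window was a 417 bp call from 141709021 to 141709437, with a fold of 8.53. It was 11th by fold in its list, while the control peaks on either side of it, 72.1 and 4.46 kb wide, had folds of 4.40 and 4.77. In siORCA the highest were 140650165 to 140652759 (fold 6.50), 127771345 to 127772235 (6.49) and 134619743 to 134620479 (6.37), all under 3 kb wide.

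Fold followed position along the core in both lists. Across the 132 whole core bins, Pearson's r between the control and siORCA mean folds was 0.772 and Spearman's rho was 0.733. Between mean -log10 p-values the same measures were 0.837 and 0.814. These are descriptions across bins: long peaks give the same value to several bins, the lists share sequence content and mapping, and bins are not replicates. Within the 3.1 Mb from 136500001 to 139600000, a segment picked after its values were seen, the control mean fold was 4.12, against 4.45 before it and 4.53 after it in the core. Its mean −log10 p was nevertheless higher, 11.4 against 10.1 and 10.8. In siORCA the segment had a mean fold of 4.87, against 5.05 and 5.10, and a mean −log10 p of 7.96, against 7.59 and 7.85. The segment held 2 control peaks and 10 siORCA peaks, 0.645 and 3.23 per covered Mb. The 7.5 Mb of core before it had 7.36 and 19.4 per covered Mb, and the 2.7 Mb after it 16.7 and 29.1. The segment had 1 and 9 breaks, against 54 and 143 before it and 43 and 75 after it. The breaks counted after it include the empty stretches past the end of the block. The bounds of the segment fall inside the 2 widest control peaks, so its low counts of control peaks and breaks follow from those bounds. The siORCA mean was not even along the segment: the −log10 p was 7.37 in the peak from 136989842 to 137725456, below both comparison values, and 8.51 in the peak from 138100327 to 139082670. The local background behind these values was not analysed here.

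**Figure D3:**
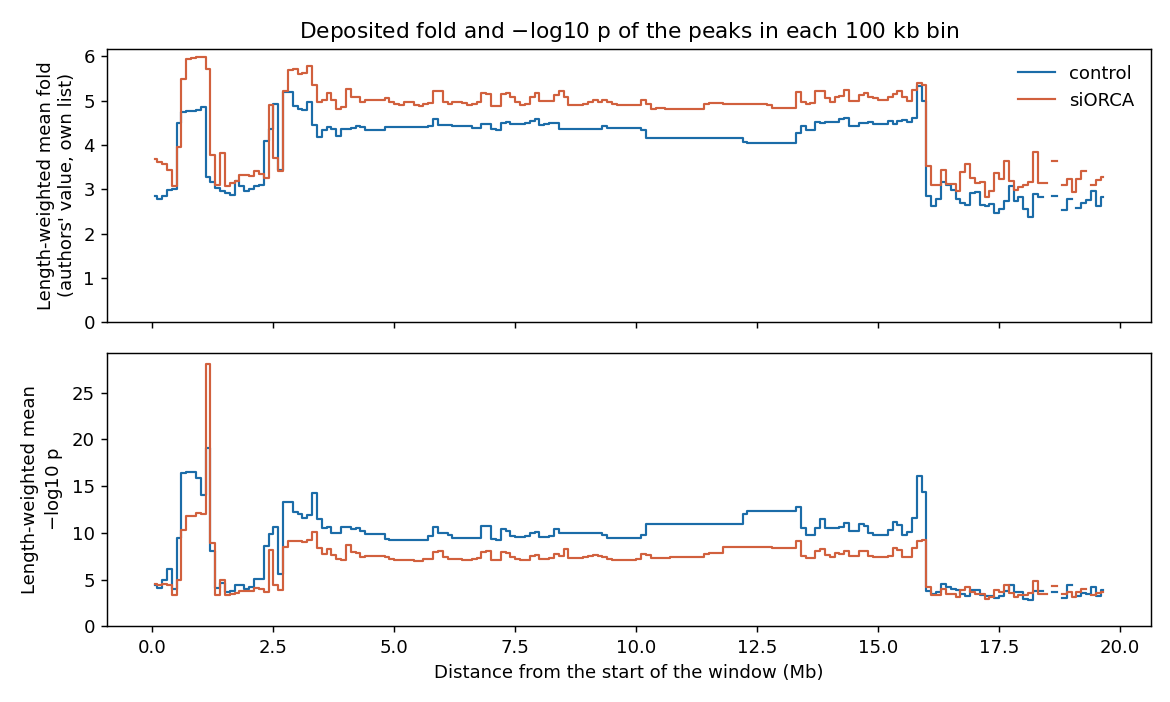
Length-weighted mean of the authors' fold (top) and of their −log10 p (bottom) for the peaks in each 100 kb bin, control in blue and siORCA in orange, against distance from the window's start in Mb. Levels of the 2 lists are not comparable with each other; within each list the core lies above the distal zone, and an island precedes the core.

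The core ended at nearly the same base in both lists as deposited. When peaks at most 3 kb apart were joined, the longest stretch ended at 142250409 in the control and at 142250626 in siORCA, 217 bp further. Inside this end, 97.8% of the last 100 kb was covered in the control and 96.8% in siORCA, and outside it 15.4% and 15.3% of the next 100 kb. In the 10 kb outside, coverage was 0% in both lists. The position of this end in siORCA, and the order of the ends, depended on the limits used. With a −log10 q of at least 2 the siORCA stretch ended at 142243044, before the unmoved control end. With 1 kb joining it ended at 142244647 and the control stretch at 142247833, and with a fold of at least 3 the control stretch ended at 142244712 and the siORCA end did not move.

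The start of the core, towards the centromere, was less sharp. The stretch began at 128992562 in the control and at 128970037 in siORCA, an offset of -22.5 kb. The siORCA list had 12 peaks between these starts, from 102 to 4176 bp wide, and 51.03% of the 10 kb just inside its start was covered, against 93.2% in the control. The 100 kb just inside were covered over 80.4% in siORCA and 99.3% in the control. The 100 kb just outside were covered over 29.0% and 32.1%. Of the 12 peaks, 1 had a −log10 q of at least 2. With that limit on all peaks, the siORCA stretch began at 129004308 and the control stretch kept its start, so the order of the starts turned. It also turned with peaks under a fold of 3 removed (129004308) and with 1 kb joining (132186140).

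**Figure D4:**
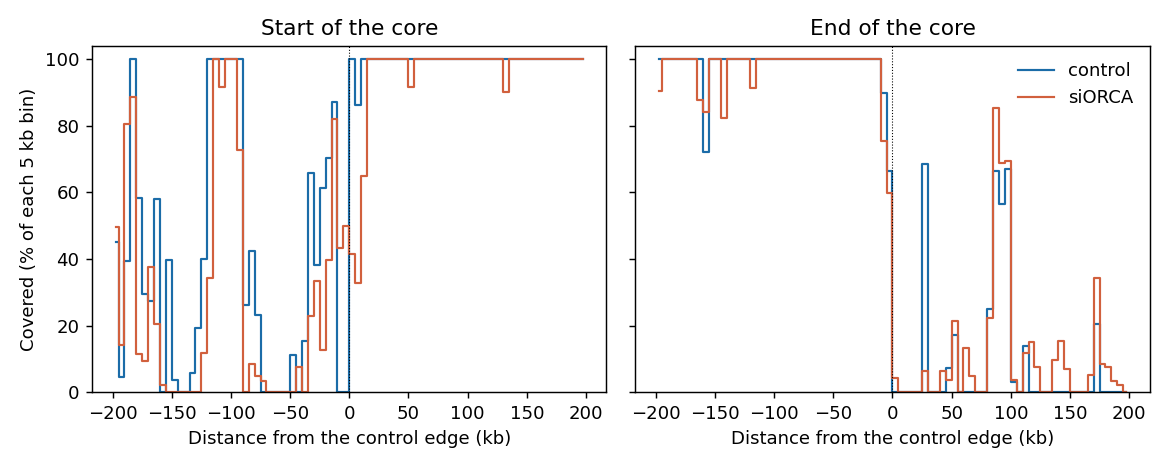
Percent of each 5 kb bin covered in the control (blue) and siORCA (orange) lists within 200 kb of the start (left) and end (right) of the core, with distance in kb from the control edge (dotted line). At the end both lists drop to 0% or near it at the control edge; at the start the siORCA list is only partly covered on both sides of that edge.

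Between the active array and the core, stretches dense in peaks alternated with stretches where peaks were sparse or absent. Next to the array, from 126300001 to 126900000, control peaks covered 79.5% and siORCA peaks 55.3%. An island from 126900001 to 127500000 was covered over 99.6% and 98.2%. The interval from 127500001 to 129000000 had 57.8% coverage in the control and 18.5% in siORCA (ratio 0.321). That ratio was below the 0.407 outside the window and the 0.350 on the rest of chromosome 1. These 3 divisions were drawn after the values were seen. The interval alone held 621.2 kb covered in the control only, of 990.5 kb in the whole window. In the other direction, 185.8 kb of the window was covered in siORCA only.

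The island was nearly full in both lists, as was the core. In the control it formed a joined stretch from 126883422 to 127510663 (627.2 kb, 9 peaks), and in siORCA from 126906525 to 127500917 (594.4 kb, also 9 peaks). Its control peaks from 126902268 to 127272852 and from 127273255 to 127395821 had folds of 4.76 and 4.87. In siORCA the peaks from 126926009 to 127178990 and from 127179549 to 127395818 had folds of 5.95 and 5.996. Set against the core of the same list, these were 1.08 and 1.11 times the core mean in the control, and 1.18 and 1.19 times in siORCA. Both lists broke at 127395818 to 127395821 and again soon after: the control peak between these breaks ran from 127396331 to 127416478 and the siORCA peak from 127396334 to 127416687.

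The last part of the island had a lower fold than its neighbours in the control list only, and a higher −log10 p in both lists. The control peak from 127417266 to 127510663 (93.4 kb) had a fold of 3.00, 0.684 times the control core mean. Its −log10 p of 20.2 was 94th in the control list, while its fold was 37193rd. Over the same bases the siORCA peaks had a mean fold of 5.73, 1.14 times the siORCA core mean. The siORCA peak from 127425632 to 127500917 (75.3 kb) had a −log10 p of 31.2, 31st in its list, and the 7.93 kb peak before it had a −log10 p of 35.7, 22nd. In siORCA the fold of 5.75 for that peak lay within the range of the other named island peaks, 5.65 to 5.996, and only the −log10 p stood apart.

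The interval after the island held the largest differences of the window. The 5 bins that were lowest in siORCA relative to the control were 4 bins of this interval and 1 beside the array. The bin starting at 128600001 was covered over 98.7 kb in the control and 16.8 kb in siORCA. The bin starting at 128000001 had 78.6 and 7.88 kb, and the bin starting at 126700001, beside the array, had 65.4 and 3.47 kb. The bins starting at 128300001 and 128500001 had 78.2 and 89.7 kb in the control and 18.0 and 30.1 kb in siORCA. In these bins the number of peaks rose in the 4 of the interval and fell from 30 to 11 in the bin starting at 126700001. The whole interval had 284 control and 337 siORCA peaks, with median widths of 905 and 431 bp.

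Control folds in these bins were below the core, and least so in the bin with the largest difference. Mean control folds were between 3.01 and 3.18 in 4 of the 5 bins, against 4.39 in the core, and 4.09 in the bin starting at 128600001. That bin was covered mainly by a control peak from 128637473 to 128786280 (148.8 kb, fold 4.48), 1.02 times the control core mean. Its initial 97.5 kb, up to 128734959, were covered over 8.51% in siORCA, by 22 peaks of at most 983 bp with folds from 2.88 to 4.14. Its last 51.3 kb were covered over 96.1% in siORCA, with a highest fold of 6.32. The cut was set where a joined siORCA stretch began, at 128734960, so the contrast between the pieces follows partly from that choice. Of the 31 control peaks of at least 10 kb that ended before the core, 15 were covered over less than 50% in siORCA, against 60.3% of all control peaks of at least 10 kb in the list. A fold of 3.46 ranked 2nd among these 15 peaks and was taken as a limit, so 14 of the 15 lie at or below it by construction. Of the 16 control peaks covered over 50% or more, 11 also lay at or below that limit, and the count of 14 is no result about fold. All 11 such siORCA peaks were covered over more than 50% in the control, and in the whole siORCA list 1.62% were not.

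Some proximal sites were high in the control list and only moderate in the siORCA list. The control peak from 126827123 to 126846760 (19.6 kb) had a fold of 7.42, 26th of the list and 1.69 times the control core mean. The siORCA peaks there covered 96.3% of it with a mean fold of 4.19, 0.835 times the siORCA core mean. The control peak from 128871946 to 128903869 (31.9 kb) had a fold of 6.36, 1.45 times the core mean, and the siORCA peaks there covered 78.1% with a mean fold of 3.84, 0.766 times. Both sites were thus above the core in the control list and below it in the siORCA list, the reverse of the end of the island. These sites were picked after their values were seen, and no fold was tested between lists.

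Beyond the block, on the long-arm side, peaks were sparse beside the core in both lists and fell at partly different places. They covered 4.66% of the distal zone in the control and 4.87% in siORCA. The rest of chromosome 1, outside the window, was covered over 4.87% and 1.70%, so only the siORCA list was denser here than there. The distal zone had 158 control and 297 siORCA peaks, with median widths of 589 and 381 bp. Of the control bins there, 30 of 37 were covered over less than 10 kb, and 31 of 37 in siORCA. Of the control length there, 42.8% was also covered in siORCA, against 31.9% over the whole control list. For siORCA the share also found in the control was 41.0%, against 71.2% over the whole siORCA list. By peaks, 44.3% of control peaks and 26.3% of siORCA peaks were overlapped, against 33.7% and 68.7% in the whole lists. Length-weighted mean folds were 2.84 in the control and 3.38 in siORCA. On the per-peak measure, the median folds of the zone were 2.68 and 3.15, slightly below the list medians of 2.73 and 3.29.

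A pair of distal sites was covered at matching places. The control stretch from 143173335 to 143204162 (30.8 kb) matched the siORCA stretch from 143173164 to 143204053 (30.9 kb). The control stretch from 143960719 to 143984194 (23.5 kb) matched the siORCA stretch from 143959826 to 143984092 (24.3 kb). The only bin of the window that was higher in siORCA by at least 10 kb, starting at 144400001, was covered over 0.267 kb in the control and 20.1 kb in siORCA by 38 peaks. The bins next in order were those starting at 145200001 (1.08 and 10.4 kb), 143100001 (16.7 and 24.2 kb), 142300001 (12.6 and 18.0 kb) and 143300001 (0.568 and 5.62 kb).

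Stretches found in a single list were short. The longest siORCA stretches without any control base ran from 144418399 to 144443005 (14 peaks over 24.6 kb), 144451749 to 144468974 (8 peaks over 17.2 kb) and 145188448 to 145204284 (9 peaks over 15.8 kb), all in the distal zone. Peaks covered between 30.4% and 35.9% of each, with mean folds from 3.09 to 3.18. The longest control stretches without any siORCA base ran from 127600607 to 127611319 (10.7 kb), from 127987054 to 127993819 (6.77 kb) and from 126813050 to 126819141 (6.09 kb), all in the proximal zone. Stretches that shared no base with the other list added up to 100.8 kb in the control and 194.9 kb in siORCA, with the gaps inside them counted. By covered bases, which include those in partly shared stretches, the order was the reverse. In the window, 990.5 kb was covered in the control only and 185.8 kb in siORCA only.

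The chromosome 16 and chromosome 9 blocks, which also lie beside centromeres and hold large satellite arrays, were covered differently. The chromosome 16 block (39000001 to 53000000) had 69.8% coverage in the control and 50.5% in siORCA (ratio 0.723). The chromosome 9 block (47600001 to 77000000) was covered over 26.1% and 11.7%, a ratio of 0.449, against 0.947 for the chromosome 1 window. The bounds of these blocks were set by hand, without a satellite annotation, and each percentage depends on them. Peak widths measured by the N50 also differed. The N50 width was 3.81 kb in the control and 1.68 kb in siORCA on chromosome 16, and 1.41 and 0.610 kb on chromosome 9, against 370.6 and 150.3 kb in the chromosome 1 window. Median widths did not follow the same order: they were 1112 and 691 bp on chromosome 16, against 1127 and 601 bp in the chromosome 1 window. The ratio of N50 widths, siORCA to control, was nevertheless similar in the 3 regions, 0.406 in the chromosome 1 window, 0.442 for chromosome 16 and 0.433 for chromosome 9. The siORCA list had 1.59, 1.95 and 1.79 times as many peaks per covered Mb in these regions. The chromosome 1 window mixes unlike zones. Its N50 ratio was 0.338 in the core, 0.904 in the proximal zone and 0.440 in the distal zone. The ratio of peaks per covered Mb was 2.32, 1.91 and 1.80 in the same order. The narrower calls in siORCA were thus not limited to chromosome 1. The differences between these regions were not tested.

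**Figure D5:**
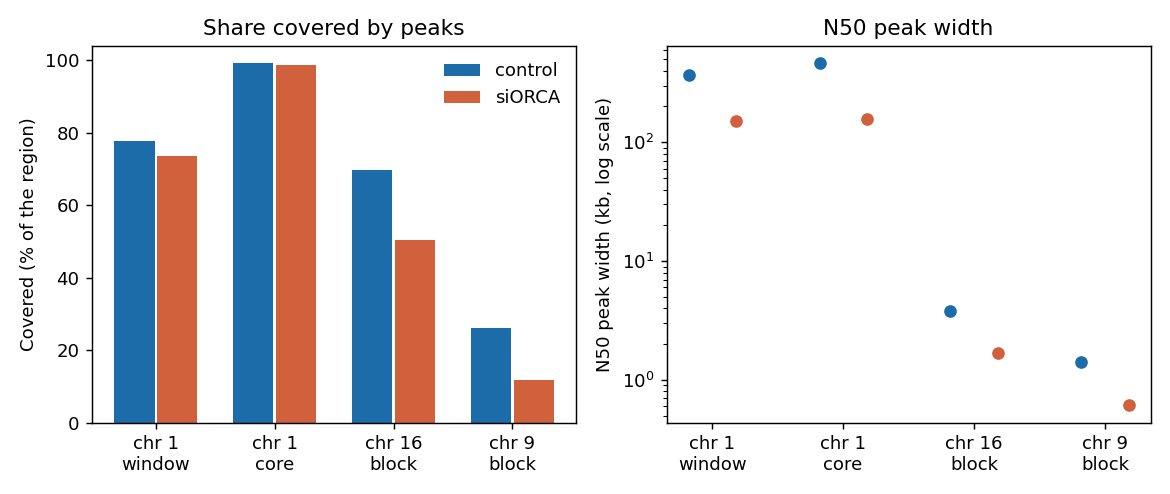
Left, percent of each region covered by peaks; right, N50 peak width in kb (log scale), for the chromosome 1 window and its core and the chromosome 16 and 9 blocks, control in blue and siORCA in orange. The core is covered over nearly its full length in both lists, and the N50 width is larger on chromosome 1 than in the other blocks in both lists.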

How the data were processed

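H3K27me3 ChIP libraries of U2OS cells, 1 per condition, were compared. Reads were handled with Bowtie2, SAMtools, Trimmomatic and bcl2fastq on T2T-CHM13, per the submitters' processing notes. The peak caller, the use of the input and the treatment of multiply aligned reads, which bears on satellite DNA, are each not given in the sources. From the broadPeak layout of the deposited files, positions (printed from 1), a score, a fold (ratio), a −log10 p-value and a −log10 q-value per peak are the authors' own values. The deposited score was not used. The read depth, and thus the precision it allows, is unknown.

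Covered length is the merged length of peaks (Python 3.11.15, numpy 2.4.6, pandas 2.3.3, matplotlib 3.10.9), clipped to each region. Fold and −log10 p were averaged by covered length. Peaks at most 3 kb apart were joined into stretches. The interval functions were tested on simulated data, with 0 of 100 lists wrong. Peaks were not tied to genes, since the gene table used here was on another build. Alternatives were limits on q and fold, equal numbers of peaks, other joining distances, bins and overlaps, and a minimum gap.

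The region, zones and comparisons were chosen with earlier results of these data known. The named regions were the block edges, 3 widest and 3 highest-fold peaks, 5 longest gaps, 5 bins that differed most each way and 3 longest unshared stretches per list; other regions were picked after their values were seen.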

Additional observations from a re-analysis of the deposited data

How the results depend on the processing

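No paired analysis was possible because each condition had 1 library, and for the same reason none was left out. Over 14 results and 59 alternatives, 45 values stayed within 1.5 times the main value (3 kb for edges), 14 moved, and 0 ratios turned direction. The order of the block's edges in the 2 lists did turn: the siORCA start came after the control start under the q limit, the fold limit and 1 kb joining, and the siORCA end came before the control end under the q limit and 1 kb joining (control 142247833). The ratio of siORCA to control stayed between 0.942 and 0.990 for covered length and between 2.31 and 2.39 for core gaps. A fold of at least 3 brought the ratio of peak numbers from 1.51 to 3.17 (1.16 under the q limit below), the share of bins higher in siORCA from 0.508% to 4.06%, the control end to 142244712 and the siORCA start to 129004308. A −log10 q of at least 2 also gave a siORCA start of 129004308, and an end of 142243044. Joining over 1 kb gave a siORCA stretch from 132186140 to 142244647, and over 10 kb a start of 128951277. The share of bins higher in siORCA was 1.02% with equal numbers, with 50 kb bins and with 200 kb bins. Counted as peaks, the share of the control also found in siORCA was 58.3% (1 bp) and 38.7% (50% of length) instead of 93.5%. The cause was not tested, except that joining over shorter distances leaves more breaks by construction, and counting peaks weighs short and long peaks alike. With unknown depth, bases absent from a list were not shown to lack the mark.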

Other observations

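The bins of the core in which most peaks met were partly the same in the lists. Across the 132 whole core bins, the number of control peaks per bin and that of siORCA peaks had a Pearson's r of 0.762 and a Spearman's rho of 0.649, as a description across bins that share long peaks. The bin starting at 133500001 held 8 peaks in each list, and the bin starting at 140600001 held 8 control and 14 siORCA peaks. Within the control core, mean fold and mean −log10 p per bin had an r of 0.104 and a rho of -0.206. Within the siORCA core they had an r of 0.63 and a rho of 0.50.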
